A study of Mus musculus with 8 samples.

Results

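The genes described here are the nuclear genes of cytochrome c oxidase in the mouse heart: the subunits of the enzyme, a supercomplex factor related to subunit VIIa, and the factors that assemble the enzyme. They were chosen by name, as every symbol that begins with Cox and a digit, together with Sco1, Sco2, Surf1, Coa3, Coa5, Coa6, Coa7, Pet100 and Pet117. This gave 36 of the 24411 gene symbols in the count tables, of which 17 are subunits, 1 is the supercomplex factor Cox7a2l and 18 are assembly factors. The choice was by name alone, made with earlier results of these data known. RNA-seq libraries were made from polyA RNA of snap-frozen hearts of C57BL/6 mice. All mice had undergone transverse aortic constriction, a narrowing of the aorta that loads the left ventricle with pressure, 1 week earlier. The 4 control mice carried MerCreMer, a tamoxifen-inducible Cre recombinase, and the other 4 were cardiac-specific knockouts of the transcription factor YY1 (Yin-Yang 1). Neither the labels nor the series text states the promoter that drives the Cre, its induction, the deleted exons or the age of the mice, and no group without aortic constriction was part of the series, so each difference below is between genotypes under pressure load.

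Cytochrome c oxidase, or complex IV, is the last enzyme of the mitochondrial respiratory chain. It passes electrons from cytochrome c to oxygen and pumps protons across the inner membrane. Its catalytic core is encoded by mitochondrial DNA and is not covered here, while a ring of smaller subunits around the core is encoded in the nucleus. Several of these small subunits exist as pairs of isoforms, of which 1 is found in heart and skeletal muscle (Cox6a2, Cox7a1, Cox8b) and 1 in most tissues (Cox6a1, Cox7a2, Cox8a). Assembly needs further proteins that make haem A, deliver copper or hold the newly made core subunits, and YY1 has been described, together with the coactivator PGC-1α, in the control of mitochondrial genes in muscle.

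The libraries held 23869112 to 23966753 reads, of which 14582605 to 16000455 were counted in genes. Yy1 (chr12:108792973-108820148, mm10) read 33.8, 37.1, 36.3 and 37.1 CPM, read counts scaled to the size of the library, in control mice 1 to 4 and 18.03, 22.3, 19.9 and 23.8 CPM in knockout mice 1 to 4. The groups did not overlap, and the knockout mean was 58.3% of the control mean (log2 fold change −0.78 ± 0.10 SE, adjusted p = 0.000769 by the quasi-likelihood test of edgeR, adjusted by Benjamini-Hochberg over 13506 genes, which is the test behind every adjusted p below). The counts cover the whole gene, not the deleted exons alone. The series' text calls all mice male. In the libraries labelled control 1, control 4, knockout 1 and knockout 4, however, Xist had 2156 to 3512 reads and the Y-linked genes at most 2, whereas the other 4 had 2519 to 3018 reads of Y-linked genes and at most 6 of Xist. Each genotype thus held 2 hearts of each class, and values within the classes are given below.

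The cardiomyocyte markers summed to 93343 to 123190 CPM in control hearts and 56442 to 81010 CPM in knockout hearts, without overlap. Of the 10 markers 4 were lower (Actc1, Myl2, Myl3 and Mb), 0 were higher and 6 did not pass. Among these 6 were Myh6, the largest part of the sum (39071 against 28450 CPM on average, groups overlapping), and Tnnt2 with a positive value (0.31). The markers thus did not move together. Over all tested genes, 17.3% were lower and 21.6% higher at the same threshold. Endothelial markers summed to 1582 to 2062 CPM against 1175 to 1414 CPM, with 5 of 7 lower and 1 higher. The higher marker was Vwf (log2 fold change 0.96, adjusted p = 0.0177, groups overlapping). Of the 7, Kdr differed most in CPM, with 349 ± 49.3 (SD) in control and 151 ± 36.0 CPM in knockout hearts. The part of either shift in the results below was not tested, and in whole-heart RNA fewer cells of a type and less RNA per cell cannot be told apart. Fibroblast and macrophage marker sums overlapped between the genotypes. Of the 7 adipocyte markers, 6 (Ucp1, Elovl3, Adipoq, Plin1, Cidec and Lep) were under 10 counts in every library, as were 5 of 8 skeletal muscle markers (Myh1, Myh2, Myh4, Actn3 and Myod1). Cox7a1 and Cox8b are also known from brown fat and skeletal muscle. The remaining adipocyte marker, Cidea, was higher in the knockout (log2 fold change 0.79, adjusted p = 0.0154), and so was the skeletal muscle marker Tnnt3 (log2 fold change 3.02, adjusted p = 0.00208). The marker sums were 32.3 to 36.6 CPM in control and 41.5 to 82.2 CPM in knockout hearts for adipocytes, and 2.27 to 2.85 against 4.86 to 15.3 CPM for skeletal muscle, without overlap in either list. The adipocyte sum was almost wholly Cidea, 34.0 CPM in control and 58.9 CPM in knockout hearts on average. The skeletal muscle difference was largely Tnnt3, 1.01 CPM against 8.27 CPM. Each sum thus restates mostly 1 gene and does not measure a cell type. The part of either list in the results below was not tested.

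Loss of YY1 was accompanied by changes in both directions among the cytochrome c oxidase genes. Of the 31 genes that passed the expression filter, 9 were lower in the knockout, 5 were higher and 17 did not pass the test. The lower genes were the subunits Cox7a1, Cox4i2, Cox7b and Cox8b, the supercomplex factor Cox7a2l and the assembly factors Coa7, Sco1, Coa5 and Coa3. The higher genes were the subunits Cox6a1, Cox8a and Cox6b1 and the assembly factors Cox18 and Cox17. Knockout affected much of the transcriptome: 38.9% of all tested genes passed the same threshold, 17.3% lower and 21.6% higher, against 45.2% of these members. The share called among the members is thus near that of the whole table. Groups did not overlap for 14 members, which are the 14 called, and for 38.3% of all tested genes. The median log2 fold change of the 31 members was −0.17 and that of all genes was 0.01. Only Cox7a1 was lower by more than 2-fold, and none of the 31 was higher by that much.

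**Figure D1:**
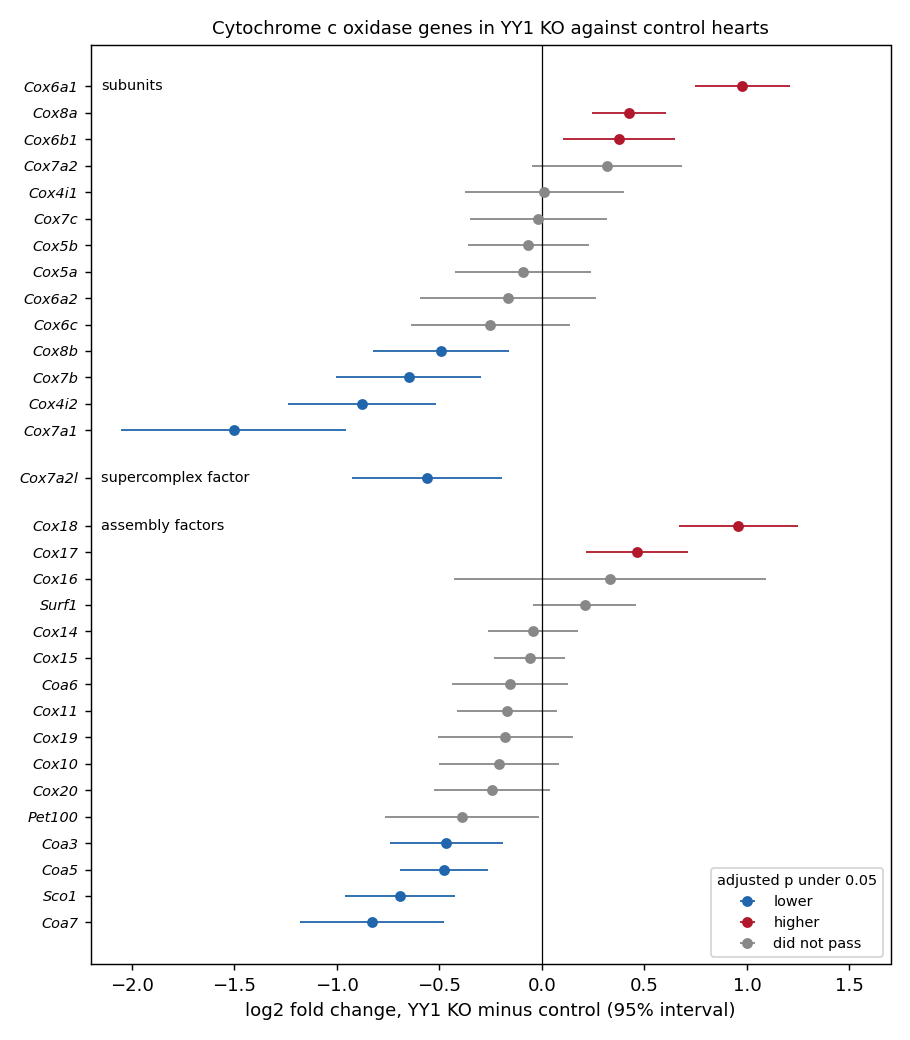
Log2 fold change, YY1 knockout minus control, of the 31 tested genes with 95% intervals from edgeR, ordered within subunits, the supercomplex factor and assembly factors. Blue and red mark genes lower and higher at an adjusted p under 0.05, and Cox7a1 at −1.50 lies farthest from 0.

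Cox7a1, the heart and skeletal muscle isoform of subunit VIIa, showed the largest difference among the 31 genes. It read 606, 466, 316 and 345 CPM in the control hearts and 113, 136, 159.8 and 202 CPM in the knockout hearts. Every knockout heart was below the lowest control heart. The mean fell from 433 ± 132 to 153 ± 38.1 CPM (SD, n = 4 each), a 2.84-fold difference (log2 fold change −1.50 ± 0.24 SE, adjusted p = 0.0018). Its ubiquitous counterpart Cox7a2 read 353, 262, 221 and 264 CPM in control and 313, 401, 368 and 288 CPM in knockout hearts, so that the groups overlapped through control 1. The Cox7a2 difference was 0.32 ± 0.16 (95% interval −0.05 to 0.68) and did not pass (adjusted p = 0.152). Without control 1 it was 0.45 and passed (adjusted p = 0.0353).

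The ubiquitous isoform of subunit VIa, Cox6a1, rose by 1.97-fold. Its control values of 92.9, 91.1, 97.1 and 99.0 CPM lay close together, and the knockout values of 181, 219, 187 and 161 CPM were all far above them (log2 fold change 0.98 ± 0.10, adjusted p = 0.000331). The muscle isoform Cox6a2 read 1239.8, 995, 729 and 907 CPM in control and 743, 1010.3, 702 and 992 CPM in knockout hearts. These groups overlapped over most of their range, and the difference was −0.17 (95% interval −0.60 to 0.26, adjusted p = 0.511).

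In subunit VIII both isoforms passed the test, in opposite directions. The ubiquitous Cox8a read 112, 112, 109.8 and 123 CPM in control and 156, 157, 159.9 and 139 CPM in knockout hearts, with no overlap (log2 fold change 0.42 ± 0.08, adjusted p = 0.00358). The muscle isoform Cox8b read 269, 298, 207 and 201 CPM in control and 147, 181, 177 and 188 CPM in knockout hearts, again without overlap but with a narrow gap between 188 and 201 CPM. Its fold change was −0.49 ± 0.15 (adjusted p = 0.0265). The Cox8b call did not hold without control 1 (adjusted p = 0.0507), control 2 (0.0672), knockout 1 (0.0689) or knockout 3 (0.0624).

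**Figure D2:**
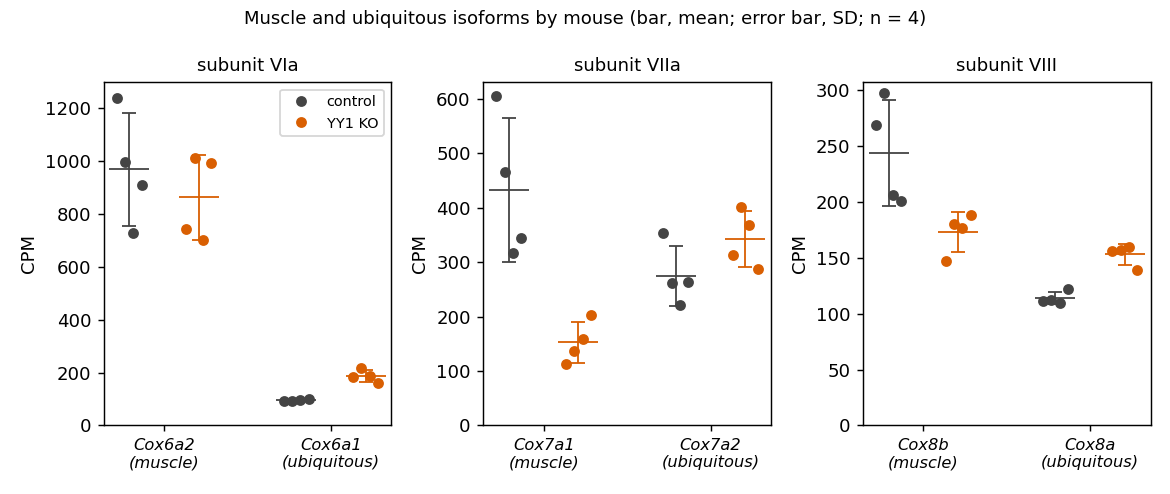
CPM of the muscle and the ubiquitous isoform of subunits VIa, VIIa and VIII in each heart (points), with the group mean (bar) and SD (error bar, n = 4), control in grey and YY1 knockout in orange. Cox7a1 and Cox8b are lower and Cox6a1 and Cox8a higher in all knockout hearts, whereas the groups overlap for Cox6a2 and Cox7a2.

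The balance within each pair was measured in each heart as the log2 ratio of the muscle to the ubiquitous isoform's counts, which needs no scaling between libraries. For subunit VIIa the Cox7a1 to Cox7a2 ratio went from 0.63 ± 0.21 (SD, n = 4) in control to −1.19 ± 0.47 in knockout hearts, a difference of −1.81 ± 0.26 (SE) or 3.51-fold. For subunit VIa the Cox6a2 to Cox6a1 ratio went from 3.32 ± 0.35 to 2.19 ± 0.31, a difference of −1.13 ± 0.24 or 2.19-fold. For subunit VIII the Cox8b to Cox8a ratio went from 1.07 ± 0.32 to 0.17 ± 0.21, a difference of −0.90 ± 0.19 or 1.87-fold. All 3 ratios were lower in the 4 knockout hearts than in any control heart. Each gave p = 0.0286 in a two-sided exact permutation test, the smallest that 4 against 4 hearts can give, and 0.0286 after Benjamini-Hochberg adjustment over the 3. For all 3 pairs the CPM ranges of both isoforms, given above, already fixed this order of the hearts. These p values are thus not support separate from the values of the single isoforms. Other gene pairs were not tested.

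Divided by transcript length, Cox7a1 made up 72.1 ± 2.96% of the reads per kilobase of its pair in control hearts (68.6 to 74.9%) and 42.5 ± 8.08% in knockout hearts (36.2 to 54.1%). The muscle isoform was thus no longer the larger part of the pair in 3 of 4 knockout hearts. Cox6a2 remained the larger part of its pair at 89.2 ± 2.36% in control and 79.2 ± 3.43% in knockout hearts. Cox8b made up 76.1 ± 4.01% and 63.2 ± 3.45%. The sum of both VIIa isoforms as RPKM, the CPM divided by transcript length in kilobases, was 1140.5 to 2077 in control and 763 to 965 in knockout hearts, without overlap. For VIa the summed level was 1590 ± 309 against 1596 ± 248 RPKM, and for VIII it was 884 ± 128 against 759 ± 44.6 RPKM.

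**Figure D3:**
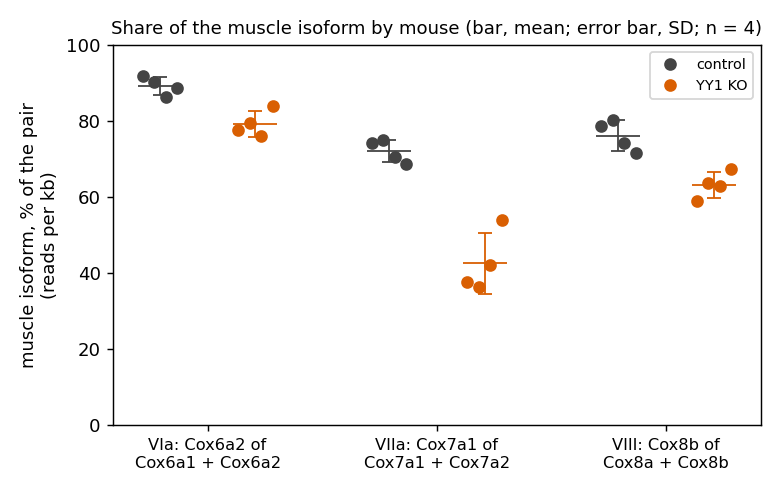
Share of the muscle isoform in the reads per kilobase of each isoform pair, in percent, for each heart (points) with mean (bar) and SD (error bar, n = 4). The share is lower in every knockout heart than in every control heart for all 3 pairs, and falls from 72.1% to 42.5% on average for subunit VIIa.

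Promoters of 5 of the 6 isoforms, without Cox6a2, are shown to set their base composition side by side, as RefSeq gives them for GRCm38.p6 from 250 bases before to 50 bases after the start of the gene. Capitals mark the letters of the motifs searched on both strands and listed further below. Cox7a1 (chr7:30183921-30184220, plus strand, 53.0% G and C, 7 CpG) and Cox8b (chr7:140900397-140900696, minus strand, 48.3%, 2 CpG) are the muscle isoforms, and Cox7a2 (chr9:79759804-79760103, minus strand, 56.7%, 20 CpG), Cox6a1 (chr5:115348909-115349208, minus strand, 63.0%, 32 CpG) and Cox8a (chr19:7217567-7217866, minus strand, 56.0%, 19 CpG) the ubiquitous ones.
Cox7a1: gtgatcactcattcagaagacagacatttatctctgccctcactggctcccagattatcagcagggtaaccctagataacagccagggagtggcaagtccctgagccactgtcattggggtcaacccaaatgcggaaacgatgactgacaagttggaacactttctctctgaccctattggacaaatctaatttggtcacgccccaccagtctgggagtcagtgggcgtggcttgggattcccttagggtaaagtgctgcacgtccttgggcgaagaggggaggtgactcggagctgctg
Cox8b: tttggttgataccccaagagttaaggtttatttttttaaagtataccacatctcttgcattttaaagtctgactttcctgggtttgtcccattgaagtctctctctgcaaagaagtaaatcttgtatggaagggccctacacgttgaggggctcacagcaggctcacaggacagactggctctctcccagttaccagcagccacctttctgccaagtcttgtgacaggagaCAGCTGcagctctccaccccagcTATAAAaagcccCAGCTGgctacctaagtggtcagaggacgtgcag
Cox7a2: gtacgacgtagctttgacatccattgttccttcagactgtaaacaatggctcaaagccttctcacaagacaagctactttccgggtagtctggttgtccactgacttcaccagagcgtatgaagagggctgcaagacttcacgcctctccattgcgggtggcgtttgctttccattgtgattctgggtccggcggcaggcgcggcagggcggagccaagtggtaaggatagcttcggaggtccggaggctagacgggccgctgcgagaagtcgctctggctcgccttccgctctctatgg
Cox6a1: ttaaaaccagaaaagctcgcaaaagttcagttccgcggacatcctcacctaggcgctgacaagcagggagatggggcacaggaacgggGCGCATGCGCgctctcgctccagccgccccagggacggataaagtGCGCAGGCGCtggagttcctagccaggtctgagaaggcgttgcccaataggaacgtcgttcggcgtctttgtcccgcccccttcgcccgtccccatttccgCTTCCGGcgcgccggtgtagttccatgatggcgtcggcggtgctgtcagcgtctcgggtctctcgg
Cox8a: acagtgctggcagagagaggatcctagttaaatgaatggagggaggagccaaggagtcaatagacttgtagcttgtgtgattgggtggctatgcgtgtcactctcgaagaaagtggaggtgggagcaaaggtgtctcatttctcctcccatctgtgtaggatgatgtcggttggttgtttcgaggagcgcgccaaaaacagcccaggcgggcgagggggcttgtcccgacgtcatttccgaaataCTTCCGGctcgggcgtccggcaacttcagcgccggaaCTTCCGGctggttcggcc
The median promoter of the 27025 genes in the same source holds 52.7% G and C and 7 CpG. The Cox6a1 window carries the NRF1 motif at 2 places and the ETS motif CCGGAAG once, the Cox8a window carries the ETS motif at 2 places, and the Cox8b window carries TATAAA once and the E-box CAGCTG at 2 places. None of the motifs searched is in the Cox7a1 or the Cox7a2 window.

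Among the subunits without such a tissue pair, Cox7b, a small subunit encoded on the X chromosome, was lower, and Cox6b1, which faces the intermembrane space next to the cytochrome c site, was higher. Cox7b read 800.4, 629.9, 530.3 and 610.4 CPM in control and 354, 482, 363 and 439 CPM in knockout hearts, with no overlap (log2 fold change −0.65 ± 0.16, adjusted p = 0.0107). Cox6b1 read 669.9, 581, 504 and 597 CPM in control and 701, 810.5, 839 and 705 CPM in knockout hearts (0.38 ± 0.12, adjusted p = 0.0352). The lowest knockout heart was just above control 1. Leaving out 1 library ended the Cox6b1 call for control 2 (adjusted p = 0.0926), control 3 (0.0846), control 4 (0.0783), knockout 2 (0.0751) and knockout 3 (0.102). With RLE in place of TMM scaling it was 0.0581.

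Cox4i2, the isoform of subunit IV known from lung and from pericytes, was present at a low level and fell by 0.88 ± 0.16 on the log2 scale (adjusted p = 0.00302). It read 10.6, 10.1, 12.4 and 12.3 CPM in control and 5.34, 5.02, 7.34 and 6.98 CPM in knockout hearts, without overlap. Of the 8 pericyte and smooth muscle markers 4 were also lower (Rgs5, Kcnj8, Abcc9 and Higd1b), beside 17.3% of all tested genes, 0 were higher and 4 did not pass, among them Acta2 with a positive value (0.60, adjusted p = 0.151, groups overlapping). The sum of all 8 was 1036 to 1325 CPM in control and 725 to 910 CPM in knockout hearts. Abcc9 alone was the largest part of that sum in every control heart, with 480 ± 126 CPM (SD) against 190 ± 56.7 CPM in knockout hearts. The sum therefore rests largely on 1 gene, and which cells its reads came from was not tested. Neither the sum nor the count of lower markers thus measures pericytes. The part of the marker differences in the Cox4i2 difference was not tested. The main isoform Cox4i1 did not pass and had a log2 fold change of 0.01 (95% interval −0.38 to 0.40).

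The other subunits tested, Cox5a, Cox5b, Cox6c and Cox7c, did not pass, with log2 fold changes of −0.09, −0.07, −0.25 and −0.02. For Cox7c, 44.4% of its 100-base windows also occur in other genes, so that its level is uncertain. Summed over all 17 subunits, tested or not, the level was 7394 ± 1314 CPM in control and 6891 ± 765 CPM in knockout hearts, 93.2% of control. Across the subunits control 1 stood highest and control 3 lowest. Of the 14 tested subunits, 10 had their highest control value in control 1, and 11 their lowest in control 3. The sums were 9077.8 CPM in control 1 and 5962.8 CPM in control 3, and the knockout sums of 6016 to 7869.8 CPM lay within that range.

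Cox7a2l, related in sequence to Cox7a2, encodes a factor that joins complexes III and IV into supercomplexes. C57BL/6 strains are known to carry a shortened and unstable form of its protein. Its RNA read 209.7, 219.6, 185 and 178 CPM in control and 109, 149.7, 107 and 171 CPM in knockout hearts. Knockout 4, at 171 CPM, came close to the lowest control heart, and the other 3 lay well below. The fold change was −0.56 ± 0.16 (adjusted p = 0.0237), and the call was lost without control 2 (0.0617), knockout 1 (0.0598) or knockout 3 (0.0681).

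Copper reaches the enzyme through a relay in which Cox17 hands it to Sco1 and Sco2 for the copper site of COX2 and to Cox11 for that of COX1. Of these, Cox17 was higher and Sco1 was lower, while Cox11 did not pass and Sco2 was not tested. Cox17 read 119, 104, 91.5 and 103 CPM in control and 131, 155, 161 and 130.2 CPM in knockout hearts, all above the highest control (log2 fold change 0.46 ± 0.11, adjusted p = 0.0103). Sco1 read 29.4, 30.7, 26.0 and 28.2 CPM in control and 16.7, 14.7, 18.2 and 21.1 CPM in knockout hearts, all below the lowest control (−0.69 ± 0.12, adjusted p = 0.0023). The copper factors Cox11, Cox19, Coa6 and Cox16 did not pass, with −0.17, −0.18, −0.15 and 0.33. Cox16 rests on 9 to 22 reads a library and shares 88.3% of its 100-base windows with other genes, and Cox11 shares 43.7%.

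Haem A is made from haem by Cox10 and Cox15, and Surf1 is needed for its place in COX1. None of the 3 passed: the log2 fold changes were −0.21, −0.06 and 0.21, and the Cox15 interval was −0.24 to 0.11. Surf1 passed only where control 1 was left out.

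The factors that receive and insert the core subunits included the largest rise among the assembly factors. Cox18, which helps COX2 cross the inner membrane, read 9.15, 10.03, 8.52 and 8.72 CPM in control and 15.2, 15.9, 20.9 and 18.8 CPM in knockout hearts. Each knockout value was at least 15.2 CPM and no control value was above 10.03 CPM (log2 fold change 0.96 ± 0.13, adjusted p = 0.000887). Coa3, which binds newly made COX1 together with Cox14, read 50.2, 50.4, 47.5 and 46.0 CPM in control and 37.6, 27.0, 35.1 and 40.7 CPM in knockout hearts (−0.47 ± 0.12, adjusted p = 0.0154). With scaling by library size alone the Coa3 value was −0.40 (adjusted p = 0.0532). Its partner Cox14 had −0.04 (95% interval −0.26 to 0.17) and did not pass.

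Cox20, a chaperone of COX2 that works with Cox18, did not pass in the unstranded counts (−0.24, adjusted p = 0.155). The reverse-strand gene Hnrnpu covers 91.1% of its exon bases, and the share of reads on the opposite strand was 16.7 to 28.1% in control and 39.4 to 53.1% in knockout hearts. Counted on its own strand, Cox20 was lower (−0.71 ± 0.18, adjusted p = 0.0122). It was the only member whose call differed between the unstranded and the stranded counts.

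Coa7 and Coa5, both needed for normal levels of the enzyme, were lower. Coa7 read 22.4, 18.3, 14.96 and 16.2 CPM in control and 9.55, 8.41, 11.04 and 11.4 CPM in knockout hearts, with no overlap (−0.83 ± 0.16, adjusted p = 0.00356). Coa5 read 239, 263, 240.1 and 235 CPM in control and 183, 151, 183 and 184 CPM in knockout hearts, again with no overlap (−0.48 ± 0.09, adjusted p = 0.00436). Pet100, which brings subunits together at an early step, had −0.39 and did not pass (adjusted p = 0.0911), and 71.3% of its 50-base windows are shared with other genes. It passed only where knockout 3 was left out. Summed over all 18 assembly factors, tested or not, the level was 858.6 ± 54.4 CPM in control and 774 ± 37.4 CPM in knockout hearts, 90.1% of control.

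**Figure D4:**
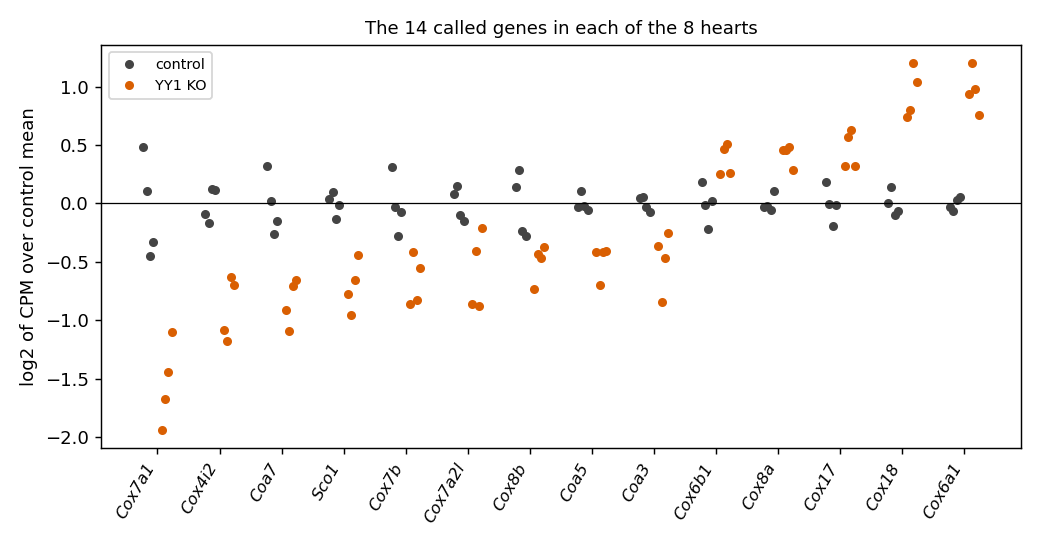
Log2 of CPM over the control mean in each of the 8 hearts for the 14 genes that passed the test, ordered by fold change, control in grey and YY1 knockout in orange. For each gene the 4 knockout points lie on 1 side of the 4 control points, from Cox7a1 on the left to Cox6a1 on the right.

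The 5 members that were not tested had few or no reads. Cox8c had 0 reads in every library, which allows up to 0.187 to 0.206 CPM (3 reads) and covers counting error only. Cox7b2 had 0 to 3 reads, Cox6b2 5 to 19 and Pet117 0 to 1, and all 100-base windows of Pet117 also lie in another gene. Sco2, the second copper donor to COX2, had 0 unstranded reads in every library, and its exons overlap Tymp and Ncaph2. On its own strand it had 5 to 17 reads, with a log2 fold change of −0.46 that did not pass (adjusted p = 0.405).

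The 17 tested genes without a call had log2 fold changes from −0.39 to 0.33, with adjusted p from 0.0911 to 0.964. Of these, 13 were below 0 and 4 above. A missed threshold does not show equal levels: the 95% interval stayed within 0.5 of 0 on the log2 scale for 9 of the 17.

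Within the 4 hearts with Xist reads and within the 4 with Y-linked reads, all 14 called genes had the sign of the whole comparison. The groups did not overlap for any of the 14, so this sign was fixed in advance, apart from rescaling. It is not separate support from each class. With 2 hearts against 2, the Xist class gave 0 calls (0% of 13671 genes) by edgeR's quasi-likelihood test. At an unadjusted p under 0.05 in that test, 7 of its 32 tested members were lower and 2 higher. The share of all genes at that unadjusted threshold was not counted, so these counts have no background beside them. In the Y class 24.5% of genes were called, with 6 members lower and 5 higher. There Cox7a2 passed with 0.65 (adjusted p = 0.0368), whereas in the Xist class it was −0.04 (adjusted p = 0.926). Cox19 passed there too, with −0.52 (adjusted p = 0.0445), and was 0.12 in the Xist class (adjusted p = 0.69). A test of the interaction between class and genotype found no gene at an adjusted p under 0.05, and the lowest adjusted p of a member was 0.812. Among the 31 tested members 4 had an unadjusted interaction p under 0.05 by the quasi-likelihood test of edgeR: Cox7a2 (0.0249), Cox19 (0.0252), Cox17 (0.0336) and Cox6c (0.0432). The share of all genes under that unadjusted threshold was not counted, so these 4 are not shown to stand out. The isoform ratios were lower in both classes, by 1.57 and 2.06 on the log2 scale for VIIa, 1.14 and 1.12 for VIa and 0.82 and 0.98 for VIII, the Xist class first. Here too the direction was fixed in advance, as every knockout ratio was below every control ratio, and only the sizes are informative.

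**Figure D5:**
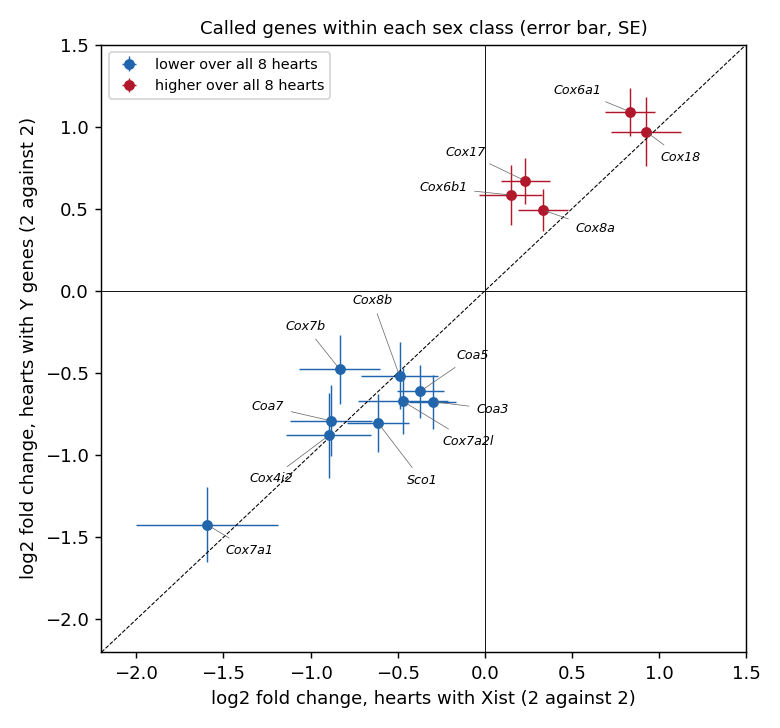
Log2 fold change (with SE) of the 14 called genes in the hearts with Xist reads (horizontal) and in those with Y-linked reads (vertical), 2 knockout against 2 control hearts in each, with the line of equality dashed. All 14 points lie in the lower left or the upper right of the plot, on 1 side of 0 for both classes. Apart from rescaling, this follows from groups that did not overlap over the 8 hearts.

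The promoters of 28 of the 36 members were found in the RefSeq table by symbol. A long YY1 motif, AANATGGCG, is in those of 2 members (Cox10 and Coa3) and of 2.76% of all 27025 genes with a promoter of that length. The shorter YY1 motif GCCATNTT, which overlaps the long one, is in those of 4 (Cox7b, Cox10, Coa3 and Cox20) and of 6.96% of all genes. Cox10, the other gene with the long motif, did not pass the test. The Coa3 promoter (chr11:101278899-101279198, minus strand) is shown because it holds the long motif, in capitals, and Coa3 was lower.
Coa3: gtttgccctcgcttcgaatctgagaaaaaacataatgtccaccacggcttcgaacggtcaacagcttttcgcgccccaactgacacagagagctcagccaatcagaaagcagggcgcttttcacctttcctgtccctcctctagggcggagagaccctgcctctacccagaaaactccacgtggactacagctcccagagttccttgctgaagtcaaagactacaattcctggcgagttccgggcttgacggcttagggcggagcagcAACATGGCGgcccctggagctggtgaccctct
The ETS motif CCGGAAG is in the promoters of 11 of the 28 members and of 9.93% of all genes. For the NRF1 motif these were 1 and 5.19%, for TATAAA 3 and 15.67%, and for the E-box 2 and 18.29%. For the MEF2 motif they were 1 (Cox5b) and 4.23%, and for the ERR motif TNAAGGTCA 0 and 1.43%. A match is a match of letters and is not a measured binding site.

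Other genes that help to build or adjoin the enzyme were read from a list of 37, of which 36 were tested. Of these 10 were lower, 5 higher and 21 did not pass, so that 41.7% were called beside 38.9% of all genes, with a median log2 fold change of −0.11. Lrpprc, which stabilises the mitochondrial messenger RNAs that encode the core subunits, read 322, 292, 233 and 239 CPM in control and 137, 147, 156 and 189 CPM in knockout hearts, with no overlap (−0.79 ± 0.14, adjusted p = 0.00289). Chchd10, a small protein of the intermembrane space, fell from 747 ± 113 to 411 ± 73.7 CPM (−0.86 ± 0.16, adjusted p = 0.00326). Fastkd1, of a family of mitochondrial RNA-binding proteins, had −1.15 ± 0.19 (adjusted p = 0.00187). Dnajc30 (−0.91), Pnkd (−0.70) and Cmc2, a small protein with a copper-relay fold (−0.69), were lower too. Cep89 (0.78 ± 0.14, adjusted p = 0.00249) and Ccs, which hands copper to superoxide dismutase (0.32 ± 0.08, adjusted p = 0.0111), were higher.

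Among 18 tested regulators of mitochondrial genes, Yy1 included, 6 were lower and 0 higher at an adjusted p under 0.05 by edgeR's quasi-likelihood test, with a median of −0.23. This was 33.3% called, all of them lower. Of all tested genes 38.9% were called, 17.3% lower and 21.6% higher. Among the 6 regulators called, 1 was the deleted gene itself. The coactivator Ppargc1b (PGC-1β) read 26.0, 26.8, 22.9 and 27.8 CPM in control and 15.5, 13.5, 16.6 and 12.1 CPM in knockout hearts (−0.84 ± 0.12, adjusted p = 0.00107). Its relative Ppargc1a (PGC-1α), the partner described for YY1, went from 132 ± 53.0 to 71.8 ± 14.9 CPM with overlapping groups (−0.88 ± 0.29, adjusted p = 0.0367). Pprc1, the third of the family, had −0.76 ± 0.18 (adjusted p = 0.00893). The transcription factors Sp1 (−0.38) and Esrrg (−0.43, groups overlapping) were lower, and Nrf1, Gabpa, Esrra and Tfam did not pass.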

How the data were processed

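PolyA RNA was sequenced from 8 whole hearts, 4 MerCreMer control and 4 YY1 knockout mice, each a separately numbered mouse in the labels. The authors trimmed reads with Trimmomatic and aligned them to mm10 with STAR, per the submitters' processing notes. The annotation, the versions and the trimming settings were not stated there. The deposited values are read counts per gene, unstranded and for each strand, per the file layout, with reads outside genes (33.02 to 38.91% of each library) left out of library sizes. Members and gene lists were chosen with earlier results of these data known.

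Genes with at least 10 counts (0.648 CPM in the median library) in 4 libraries were kept, 13506 of 24411, holding 99.9% of reads in genes. Unstranded counts were scaled by TMM and tested with edgeR 4.0.16 (R 4.3.3, limma 3.58.1; quasi-likelihood, group as the only term), with Benjamini-Hochberg adjustment at 0.05. CPM are TMM-scaled. Isoform ratios added 0.5 to each count and were tested by exact permutation over 70 assignments, doubling the smaller tail, with 4 against 3 hearts limited to p = 0.0571. RPKM used the principal transcript of GENCODE M21 on GRCm38, which has the mm10 coordinates (Cox6a1 571, Cox6a2 680, Cox7a1 393, Cox7a2 659, Cox8a 550 and Cox8b 360 bases). Promoters are RefSeq's for GRCm38.p6.

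Every member is accounted for. Members called, and the 6 isoforms of the 3 pairs, are given in every library. Of the other lists, up to 8 called genes with the smallest p are named. Alternatives were other scalings (library size alone, RLE, upper quartile), limma-voom and DESeq2 1.42.0 as tests, other filters, stranded counts, a replicate block, a term for the Xist and Y class, each class alone and each library left out. The interaction test was added after seeing the data. The scripts were tested on simulated counts. Each library had at least 14582605 reads in genes. For members with many reads the spread between hearts, more than counting error, limited the precision. For members with few reads, such as Cox16 at 9 to 22 reads a library, counting error adds to it.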

Additional observations from a re-analysis of the deposited data

Results flagged for a closer look

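A single heart stood apart from the other 3 of its group for 2 values. Cox10 was 99.7 CPM in control 1 against 70.005 to 75.1 CPM in the other control hearts, a gap of 0.83 of the group's range. Coa5 was 151 CPM in knockout 2 against 183 to 184 CPM in the other knockout hearts, a gap of 0.968 of the range. Both gaps pass the critical value of Dixon's test for 4 values. Among the 70 groups examined, chance alone flags about 1 in 20. Coa5 stayed below every control heart in all 4 knockout hearts, and Cox10 did not pass the test.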

How the results depend on the processing

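Of the 9 lower and 5 higher members, 8 to 9 stayed lower and 4 to 5 higher under other scalings, tests and filters and with a class term (where Cox6b1 had an adjusted p of 0.051), and 10 were lower and 5 higher in the stranded counts. Leaving out 1 library gave 7 to 9 lower and 4 to 7 higher members, 8 to 10 lower and 4 to 5 higher partner genes, Yy1 from −0.84 to −0.71, and isoform ratio differences of −1.27 to −0.99 (VIa), −2.04 to −1.69 (VIIa) and −1.02 to −0.79 (VIII). The 4 Xist libraries alone gave 0 lower and 0 higher members and 0 lower and 0 higher partner genes. At an unadjusted p under 0.05 in edgeR's test these were 7, 2, 6 and 1, with no count over all genes at that threshold. In the Xist libraries Yy1 was −0.76 (adjusted p = 0.116) and Cox7a2 turned to −0.039. The 4 Y libraries alone gave 6 lower and 1 higher partner genes. Both settings use 4 libraries in place of 8. The deviations of same-numbered hearts of the 2 genotypes from their group means had correlations of both signs (−0.46, 0.34, −0.06 and 0.27). Same-numbered hearts were also always of the same Xist or Y class. Whether the numbers pair the hearts cannot be told from these values. A replicate block gave 8 lower and 4 higher members and 7 lower and 4 higher partner genes, with Yy1 at −0.79, Cox6b1 (adjusted p = 0.111) and Cox8b (0.0688) no longer called, 4026 genes called in place of 5248, and ratio differences of −1.13, −1.81 and −0.90. Scaling by library size alone moved the median of all genes by 0.06. The cause of these changes was not tested. With 4 hearts a group, a difference within the spread between hearts was not detectable.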

Other observations

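Control 1 held the highest control value for 16 of the 31 tested genes, and control 3 the lowest for 20. Knockout 1 held the highest knockout value for 0 of the 31 and the lowest for 12.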
